A study of Mus musculus with 3 samples.

Results

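The activation-induced transcription factor genes Nr4a1, Nr4a2, Nr4a3, Egr1, Egr2 and Egr3, 6 of the 55401 genes listed in the count files, were followed across the T, NK, monocyte, macrophage and dendritic cells of mouse melanomas at 3 ages of the host. They were chosen by symbol, and each symbol matched 1 gene identifier. The libraries came from mice aged 4, 12 and 20 months, 7 mice of each age, each carrying a subcutaneous tumour grown for 18 days from 500000 cells of YUMM1.7, a transplantable mouse melanoma line. All 3 groups share that 1 line, enzymatic digestion of the tumour with collagenase D and DNase I, and a sort for live cells stained for the leukocyte protein CD45.2. There was 1 library per age, no group without a tumour, and the labels give neither strain nor sex nor whether cells of the 7 mice were pooled. The labels enter melanoma as the cell type, but 7 melanoma-cell genes together stood at 3.60 to 57.1 CPM (counts of a gene scaled to the total of its class) in the classes described here, and the cells are treated as leukocytes.

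NR4A proteins are orphan nuclear receptors and EGR proteins are zinc-finger factors. Both are products of immediate early genes, which are transcribed within minutes of a signal from already present regulators and whose messages decay quickly. In T cells they are induced through the antigen receptor, where NR4A factors are known for their part in the dysfunctional state of T cells in tumours and Egr2 and Egr3 for restraining activation. In the myeloid line Nr4a1 is needed for nonclassical monocytes, which patrol vessels, and Egr1 is induced by many growth and stress signals.

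The genes lie on GRCm38 at chr15:101254269-101274795 (Nr4a1, plus strand), chr2:57106830-57124003 (Nr4a2, minus strand), chr4:48045153-48086447 (Nr4a3, plus strand), chr10:67535475-67542188 (Egr2, plus strand) and chr14:70077203-70082614 (Egr3, plus strand), and no other annotated gene overlaps any of the 6. Promoter stretches upstream of the RefSeq start are shown for the NR4A genes and for Egr2, since the first 3 are summed below and Egr2 went another way with age. The capitals mark TGACG, or its reverse complement CGTCA, the core of the cAMP response element bound by CREB, and in Egr2 also the CArG box bound by serum response factor. None of the stretches overlaps an annotated exon of the same gene, which leaves 98 bases for Nr4a3 (chr4:48045055-48045152, plus strand) and 250 for Nr4a1 (chr15:101266596-101266845, plus strand), Nr4a2 (chr2:57124004-57124253, minus strand) and Egr2 (chr10:67537619-67537868, plus strand). Those of Nr4a1 and Egr2 fall in introns of longer transcripts of the same genes. Egr2 has several RefSeq starts, and the stretch shown is that with the most matches; at the first start (chr10:67535249-67535474, plus strand) there were none.
Nr4a1: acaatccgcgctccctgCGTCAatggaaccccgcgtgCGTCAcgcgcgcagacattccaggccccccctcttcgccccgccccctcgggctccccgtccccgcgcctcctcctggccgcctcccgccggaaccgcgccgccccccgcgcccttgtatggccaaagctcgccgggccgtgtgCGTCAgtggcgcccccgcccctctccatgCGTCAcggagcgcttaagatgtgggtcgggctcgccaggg
Nr4a2: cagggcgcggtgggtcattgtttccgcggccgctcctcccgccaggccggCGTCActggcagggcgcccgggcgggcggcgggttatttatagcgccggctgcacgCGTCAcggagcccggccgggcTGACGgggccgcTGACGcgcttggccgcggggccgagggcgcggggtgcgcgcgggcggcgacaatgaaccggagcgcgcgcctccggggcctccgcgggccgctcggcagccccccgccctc
Nr4a3: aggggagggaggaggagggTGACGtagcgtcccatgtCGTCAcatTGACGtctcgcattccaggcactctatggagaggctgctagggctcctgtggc
Egr2: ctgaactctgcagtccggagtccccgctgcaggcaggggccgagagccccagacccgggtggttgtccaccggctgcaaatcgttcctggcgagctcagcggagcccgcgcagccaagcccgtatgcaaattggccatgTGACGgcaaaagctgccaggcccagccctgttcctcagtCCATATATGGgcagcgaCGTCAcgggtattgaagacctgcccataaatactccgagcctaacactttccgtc
Each of the 3 NR4A genes held 4 matches to TGACG on either strand in the 250 bases before its start, 1 of which lies in an annotated exon for Nr4a3. Of 32817 promoter windows of 250 bases in the RefSeq table (GRCm38.p6), 17.7% held at least 1 match and 0.137% held at least 4. The windows of Nr4a1, Nr4a2 and Nr4a3 were 74.4%, 80% and 63.6% G or C, against a median of 52.4% over all windows. Windows of like base content were not compared. The Egr2 stretch held 2 such matches and 1 CArG box, a motif found in 1.47% of the windows. The full palindrome TGACGTCA, present in 1.55% of windows, and the EGR site GCGTGGGCG, present on either strand in 0.536%, were in none of these 4. These matches describe the letters of the windows and are no evidence of binding.

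After filtering, 13528, 13774 and 13803 cells were retained from the libraries of 4, 12 and 20 months, with a median of 6724, 7322 and 6864 counts per cell. They were placed in 16 classes, 12 of them named by marker genes ("CD8 T-like" and so on) and 4 named only by their leading genes because the markers did not settle their class. Other retained cells, among them few B cells, mast cells, neutrophils and fibroblasts, are not described. Level means CPM of all counts of a class in 1 library, with an exact 95% Poisson interval. A log2 ratio compares a class at 12 or 20 months with the same class at 4 months, and its exact 95% interval covers counting error only. With 1 library per age no spread between mice can be had, so no difference with age was tested. No library shared more than 4 cell barcodes with another. Of the markers listed for each class, 4 of 5 were highest or second highest in CD8 T-like cells, 12 of 12 in NK-like cells, 11 of 12 in macrophage-like cells and 6 of 10 in classical monocyte-like cells. The CD8 T list holds Cd3e and Trac, general T cell genes that were not used to name its sub-clusters. Classes were named from these lists, so the counts are no independent check of the names.

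Among cell classes, Nr4a1 was most abundant in nonclassical monocyte-like cells at every age. Its level there was 885 CPM (827-947) at 4 months, 813 CPM (746-884) at 12 months and 494 CPM (440-553) at 20 months. Next came regulatory T-like cells with 365, 376 and 284 CPM, CD4 T-like cells, of which there were only 45, 157 and 78, with 342, 381 and 390 CPM, and monocyte/macrophage-like cells led by AA467197 and Upp1 with 261, 396 and 334 CPM. The intervals of the first 2 of these overlapped at 4 months, those of all 3 at 12 months, and at 20 months CD4 T-like cells overlapped with the Upp1-led cells only. Classical monocyte-like cells had 224, 292 and 181 CPM, NK-like cells 213, 252 and 164 CPM (overlapping with these at 4 months only), CD8 T-like cells 174, 217 and 120 CPM and macrophage-like cells 138, 178 and 112 CPM. The lowest level at each age was in mature DC-like cells, the dendritic cells that have taken up antigen and express Ccr7, with 67.3 CPM (52.5-85.0), 79.0 CPM (65.8-94.0) and 40.7 CPM (28.3-56.6). RNA free in the suspension can be counted in any class, and its share was not measured.

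Nr4a2 had another order. At 4 months CD8 T-like cells stood highest with 183 CPM (177-189), above cDC1-like cells, the cross-presenting dendritic cells, with 145 CPM (121-172). CD4 T-like cells with 133 CPM (93.8-184) and NK-like cells with 133 CPM (128-138) came next and could not be told apart. At 12 and 20 months CD4 T-like cells were highest, with 187 CPM (163-213) and 214 CPM (178-256), against 135 CPM (131-139) and 102 CPM (98.4-106) in CD8 T-like cells. Regulatory T-like cells, high in Nr4a1, had little Nr4a2, with 47.4, 45.0 and 36.9 CPM. Macrophage-like cells had 39.8, 48.6 and 35.4 CPM and classical monocyte-like cells 60.9, 65.9 and 57.0 CPM, so that both stayed below NK-like cells at each age. The lowest levels were 18.0 CPM in gamma-delta T-like cells at 4 months, 29.1 CPM in plasmacytoid DC-like cells at 12 months and 27.4 CPM in the T-like cells led by Gzmm and Ccr7 at 20 months.

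Nr4a3 marked mature DC-like cells, where it stood at 392 CPM (355-432), 368 CPM (339-399) and 399 CPM (358-443). The next levels, 101 CPM (67.0-146), 82.4 CPM (67.1-100) and 119 CPM (92.8-151) in CD4 T-like cells and 76.3, 88.2 and 82.9 CPM in cDC2-like cells, had intervals that overlapped each other at every age. NK-like cells held 48.1, 48.0 and 47.5 CPM, CD8 T-like cells 34.0, 26.8 and 28.0 CPM and macrophage-like cells 20.7, 25.5 and 17.9 CPM. Mature DC-like cells were thus the highest of the 16 classes for Nr4a3 and the lowest for Nr4a1. The highest level of Nr4a3 was 22.8, 21.3 and 27.4 times the lowest at 4, 12 and 20 months.

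Egr1 (chr18:34859823-34864984, plus strand) was most abundant in conventional dendritic and monocyte classes. It stood at 66.2 CPM (50.3-85.6), 33.7 CPM (23.7-46.5) and 86.3 CPM (72.2-102) in cDC1-like cells and at 50.8, 70.1 and 43.5 CPM in cDC2-like cells. The ages went different ways in these classes, with 12 months lowest in one and highest in the other. Classical monocyte-like cells held 47.8, 48.2 and 46.6 CPM with overlapping intervals, while CD8 T-like cells held 21.0, 21.8 and 17.2 CPM and NK-like cells 22.5, 23.1 and 19.9 CPM. Mature DC-like cells had 4 counts at 4 months and 4 at 20 months.

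Egr2 and Egr3 were sparse. Egr2 was highest in CD4 T-like cells, with 36.0 CPM (17.3-66.2), 51.4 CPM (39.5-65.7) and 51.0 CPM (34.1-73.2) from 10, 63 and 29 counts. Elsewhere it stood at or below 13.4 CPM in every class and age, with 9.53, 10.8 and 6.37 CPM in macrophage-like cells and 4.32, 5.50 and 6.73 CPM in CD8 T-like cells. Egr3 was highest in NK-like cells at 4 months, with 6.76 CPM (5.64-8.04), and in cDC1-like cells at 12 and 20 months, with 29.2 CPM (19.9-41.2) and 46.7 CPM (36.5-58.8). At 4 months cDC1-like cells had 5 Egr3 counts, or 5.71 CPM (1.85-13.3), which overlapped with NK-like cells.

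**Figure D1:**
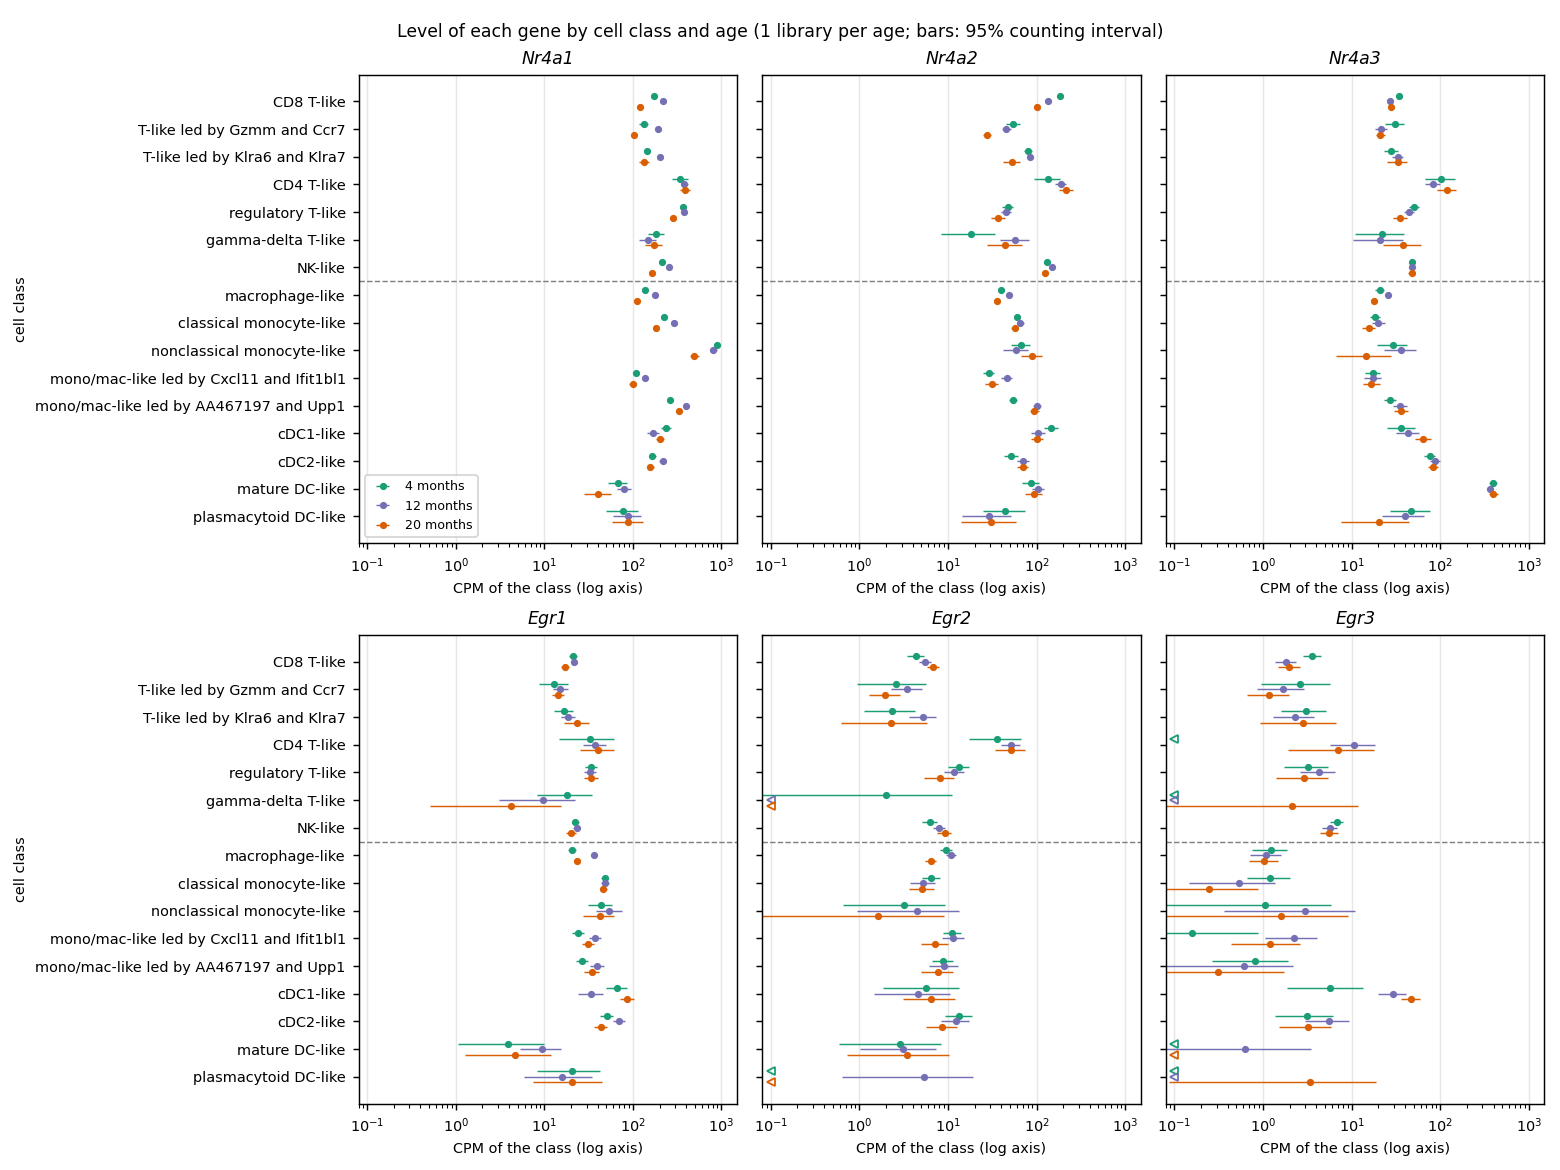
Level of each of the 6 genes in CPM on a log axis for the 16 cell classes (rows) at 4, 12 and 20 months (colours), with 95% counting intervals as bars; the dashed line divides lymphocyte-like from myeloid-like classes, and open triangles at the left edge mark classes with no count. Nr4a1 peaks in nonclassical monocyte-like cells (885, 813 and 494 CPM) and Nr4a3 in mature DC-like cells (392, 368 and 399 CPM).

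With age, the summed level of the 3 NR4A genes was lower at 20 months in CD8 T-like, NK-like, regulatory T-like, macrophage-like and classical monocyte-like cells, and among these 5 classes most so in CD8 T-like cells. The order differs for single genes and for the smaller and unnamed classes given below. The summed level in CD8 T-like cells was 391 CPM (382-400) at 4 months, 379 CPM (372-386) at 12 months and 250 CPM (244-256) at 20 months. The library of 20 months stood apart from both others, at 64.0% of the level at 4 months. Its log2 ratio was -0.64 (-0.69 to -0.60), against a median of -0.08 over all 3059 genes at 50 or more CPM in that class. At 12 months the ratio was -0.04 (-0.09 to -0.00), and it turned to 0.11 when the sub-clusters of the class were given the same weights at all ages.

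Within CD8 T-like cells Nr4a2 differed more than the other NR4A genes. It stood at 183, 135 and 102 CPM in the order of age, with log2 ratios of -0.44 (-0.50 to -0.37) at 12 months and -0.84 (-0.91 to -0.76) at 20 months. Nr4a1 was higher at 12 months (0.32, 0.26 to 0.38) and lower at 20 months (-0.54, -0.61 to -0.47). The 3 levels of Nr4a1 therefore had no single direction with age, whereas those of Nr4a2 did. For Nr4a3 the ratios were -0.34 (-0.49 to -0.19) and -0.28 (-0.43 to -0.13). Of the 6 genes, 2 were more than 1.5-fold lower at 20 months (Nr4a2 and Egr3) and 1 more than 1.5-fold higher (Egr2), where 1.08% of the genes at 50 or more CPM in CD8 T-like cells were past that fold downward and 3.47% upward. Only Nr4a1 and Nr4a2 reach 50 CPM there and belong to those genes, and the sparse Egr2 and Egr3 do not. At 12 months 1 of 6, Egr3, was past the fold downward, against 0.428%, and none upward, against 1.68%.

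NK-like cells, which kill without antigen receptors, showed a smaller difference. Their NR4A sum was 394 CPM (385-403), 451 CPM (441-460) and 335 CPM (325-345), highest at 12 months and lowest at 20 months, with a log2 ratio of -0.24 (-0.29 to -0.18) at 20 months. Nr4a1 made up most of it, with a ratio of -0.38 (-0.46 to -0.31). For Nr4a2 the ratio was -0.11 (-0.20 to -0.01), and for Nr4a3 it was -0.02 (-0.17 to 0.13). The difference in Nr4a2 between CD8 T-like and NK-like cells, -0.73 (-0.85 to -0.62) on the log2 scale, lay beyond counting error, as did that in Nr4a1, -0.16 (-0.26 to -0.05). None of the 6 genes was past 1.5-fold in NK-like cells at 20 months, where 0.345% of tested genes were lower and 1.52% higher by that fold.

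Regulatory T-like cells had NR4A sums of 463 CPM (443-484), 465 CPM (446-485) and 356 CPM (337-377). The first 2 could not be told apart, and the ratio at 20 months was -0.38 (-0.48 to -0.28). Here all 3 genes were lower at 20 months, by -0.36 for Nr4a1, -0.36 for Nr4a2 and -0.52 for Nr4a3. Egr2 was the 1 gene past 1.5-fold, at 13.2, 11.8 and 8.15 CPM (-0.70, -1.40 to -0.02), where 1.58% of tested genes were as much lower and 1.97% higher. In T-like cells led by Gzmm and Ccr7, the latter the lymph node homing receptor gene of resting T cells, Nr4a2 stood at 54.0, 45.8 and 27.4 CPM (-0.98, -1.28 to -0.67), where 2.63% of tested genes were at least 1.5-fold lower. That class held 343, 897 and 1866 cells. T-like cells led by the NK receptor genes Klra6 and Klra7 had 80.0, 84.2 and 52.4 CPM of Nr4a2 (-0.61, -0.96 to -0.27) in 654, 880 and 269 cells, where 2.14% of tested genes were at least 1.5-fold lower at 20 months. CD4 T-like cells went the other way for Nr4a2, with 133, 187 and 214 CPM (0.69, 0.14 to 1.26) from 37, 229 and 122 counts. Gamma-delta T-like cells were also higher, with 18.0, 57.3 and 44.3 CPM, from 9, 30 and 21 counts. In the small CD4 T-like class 10.2% of tested genes were at least 1.5-fold higher at 20 months and 12.7% lower, and in gamma-delta T-like cells 8.9% and 11.7%.

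Myeloid classes differed from each other. Macrophage-like cells had NR4A sums of 198 CPM (192-205), 252 CPM (246-258) and 165 CPM (161-170), with a peak at 12 months and a ratio of -0.26 (-0.33 to -0.20) at 20 months. The single genes were at -0.30 (Nr4a1), -0.17 (Nr4a2) and -0.20 (Nr4a3). For Nr4a2 and Nr4a3 the upper bounds were -0.02 and -0.00, close to no difference. Sub-cluster weights held fixed over the ages took Nr4a2 to 0.02. Subtracting the lowest level of the named classes took it to -2.24, with Nr4a1 at 0.01 and Nr4a3 at 0.53. For Nr4a2 10 of 11 alternatives lay below 0, as did 10 of 11 for Nr4a3, but the size of these differences depended on the processing. The same subtraction took Nr4a2 of regulatory T-like cells from -0.36 to -2.26. At 4 months the Nr4a2 level subtracted was 18.0 CPM, from only 68 gamma-delta T-like cells, so -2.24 and -2.26 rest in part on a small class. No gene was past 1.5-fold in macrophage-like cells at 20 months, where 0.655% of tested genes were lower and 1.15% higher.

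Classical monocyte-like cells had sums of 303 CPM (293-313), 378 CPM (364-392) and 254 CPM (243-265), the same order as in macrophage-like cells. Their 1 gene past 1.5-fold at 20 months was Egr3, with 14, 4 and 2 counts, where 1.31% of tested genes were as much lower and 1.34% higher. Nonclassical monocyte-like cells had 981 CPM (919-1046), 907 CPM (836-983) and 598 CPM (538-662), a log2 ratio of -0.72 (-0.89 to -0.54) at 20 months that came from Nr4a1 (-0.84, -1.03 to -0.65). That class held 158, 89 and 89 cells, and 6.3% of its tested genes were at least 1.5-fold lower. Monocyte/macrophage-like cells led by AA467197 and Upp1 had higher levels at both later ages, with sums of 343 CPM (328-358), 532 CPM (508-558) and 465 CPM (442-489) and a ratio of 0.44 (0.35 to 0.54) at 20 months. They also held the most summed tumour markers, up to 57.1 CPM at 20 months, whose part in the result was not tested. Their Nr4a2, at 54.1, 101 and 94.8 CPM, was past 1.5-fold at 20 months (0.81, 0.58 to 1.04), where 2.26% of tested genes were as much higher. Mature DC-like cells, with sums of 545, 551 and 533 CPM, and cDC2-like cells, with 295, 375 and 310 CPM, had ratios of -0.03 (-0.21 to 0.15) and 0.07 (-0.07 to 0.21) at 20 months. Nr4a1 alone was at -0.73 (-1.35 to -0.12) in mature DC-like cells, where 5.85% of tested genes were at least 1.5-fold lower.

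Lymphocyte-like and myeloid-like classes were then each pooled, to ask which differences with age were shared. A difference was called shared where both intervals lay on the same side of 0, and lymphocyte-restricted where only the lymphocyte interval excluded 0 and the difference of the 2 ratios did too. At 20 months Nr4a1 was shared, with -0.53 (-0.57 to -0.49) in lymphocyte-like and -0.34 (-0.38 to -0.29) in myeloid-like cells. It was larger in the lymphocyte-like pool by -0.20 (-0.26 to -0.13). Against macrophage-like cells, CD8 T-like cells differed in Nr4a1 by -0.24 (-0.34 to -0.14). NK-like cells (-0.08, -0.19 to 0.03) and regulatory T-like cells (-0.06, -0.20 to 0.07) could not be told apart from macrophage-like cells in this. In the pools Nr4a2 met the rule for lymphocyte-restricted, with -0.67 (-0.73 to -0.62) against -0.06 (-0.15 to 0.02), a difference of -0.61 (-0.70 to -0.51). Nr4a3 met it with -0.31 against -0.09 and a difference of -0.22 (-0.35 to -0.08). So did Egr1, with -0.24 against 0.06 and a difference of -0.30 (-0.46 to -0.15). Between single classes the restriction did not hold throughout. By the same rule Nr4a2 at 20 months was shared between macrophage-like cells and each of CD8 T-like, NK-like and regulatory T-like cells, with differences of -0.67 (-0.83 to -0.51), 0.06 (-0.11 to 0.23) and -0.19 (-0.54 to 0.16). Nr4a3 was shared between CD8 T-like and macrophage-like cells (difference -0.08, -0.32 to 0.17), and CD8 T-like and classical monocyte-like cells could not be told apart (-0.04, -0.39 to 0.31). Egr1 met the rule for CD8 T-like against macrophage-like cells (-0.44, -0.71 to -0.18). It did not for NK-like (-0.32, -0.62 to -0.03) or regulatory T-like cells (-0.14, -0.54 to 0.26) against macrophage-like cells. Nor did it for CD8 T-like against classical monocyte-like cells (-0.25, -0.52 to 0.02). The intervals of the Egr1 ratios of NK-like (-0.17) and regulatory T-like cells (0.01) held 0. The pooled lymphocyte Nr4a2 value combines CD8 T-like cells at -0.84 with NK-like cells at -0.11, and the makeup of that pool moved with age. Cells led by Gzmm and Ccr7, lowest in Nr4a2 at 20 months (27.4 CPM), numbered 343 at 4 months and 1866 at 20 months. NK-like cells numbered 2282 and 1622. The pooled myeloid Nr4a2 value combines the Upp1-led cells at 0.81 with macrophage-like cells at -0.17. Over 12 alternatives it ran from -0.90, with the lowest level subtracted, to 0.12, with fixed sub-cluster weights, and the lymphocyte minus myeloid difference from -0.64 to -0.22. Of the 16 classes, 3 were past 1.5-fold lower in Nr4a2 at 20 months (CD8 T-like cells, those led by Gzmm and Ccr7 and those led by Klra6 and Klra7) and 3 past it higher (CD4 T-like, gamma-delta T-like and Upp1-led cells).

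In the pools Egr2 at 20 months was the reverse, lower in myeloid-like cells only: 8.97 CPM at 4 months and 6.42 CPM at 20 months (-0.48, -0.69 to -0.27), against 5.69 and 6.55 CPM in lymphocyte-like cells (0.20, -0.02 to 0.43). Between single classes this did not hold throughout. By the same rule Egr2 was shared between regulatory T-like (-0.70) and macrophage-like cells (-0.58), with a difference of -0.12 (-0.84 to 0.60). Egr3 went opposite ways, from 4.57 to 2.75 CPM in lymphocyte-like cells (-0.73, -1.04 to -0.44) and from 1.12 to 2.38 CPM in myeloid-like cells (1.09, 0.62 to 1.58). Of the 124 myeloid counts at 20 months 72 lay in cDC1-like cells, and without these cells the ratio was -0.01. Of 6 genes, 2 were past 1.5-fold downward in pooled lymphocyte-like cells at 20 months (1.35% of tested genes) and none upward (2.54%). In pooled myeloid-like cells none was past it downward (1.63%) and 1, Egr3, upward (1.36%). Only Nr4a1 and Nr4a2 reach 50 CPM in these pools and belong to the tested genes. Of these 2 genes, 1 (Nr4a2) was past the fold in lymphocyte-like cells and none in myeloid-like cells. The sparse Egr3 does not belong to them.

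At 12 months only Nr4a1 was shared among the single genes, and upward, with 0.22 (0.19 to 0.26) in lymphocyte-like and 0.21 (0.17 to 0.25) in myeloid-like cells, which could not be told apart (0.02, -0.04 to 0.07). Nr4a2 and Nr4a3 were lower in lymphocyte-like cells (-0.18 and -0.21) and higher in myeloid-like cells (0.26 and 0.30). Egr1 was higher in pooled myeloid-like cells only, at 0.34 (0.24 to 0.44), but single myeloid-like classes differed. In macrophage-like cells it stood at 20.8, 36.3 and 23.1 CPM. The macrophage-like ratio of 0.80 (0.63 to 0.99) was the only one past 1.5-fold in that class at 12 months, where 2.03% of tested genes were as much higher and 0.468% lower. Mature DC-like cells had a larger Egr1 ratio, 1.29, from 3.85 CPM at 4 months to 9.40 CPM at 12 months. Its interval held 0. Classical monocyte-like cells were at 0.01 and cDC1-like cells at -0.97. At 12 months Egr3 alone was past the fold in the pooled classes, upward in myeloid-like cells (2.13% of tested genes), with none past it downward there (1.05%) or in lymphocyte-like cells (0.464% down and 1.33% up).

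**Figure D2:**
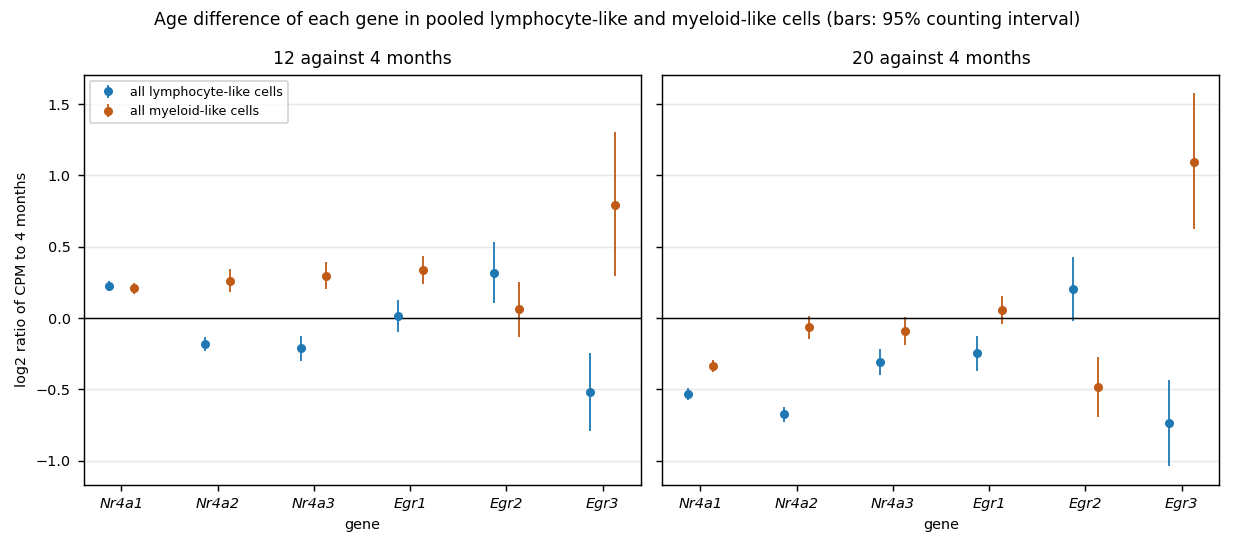
Log2 ratio of the level of each gene to 4 months, at 12 months (left) and 20 months (right), in all lymphocyte-like and all myeloid-like cells, with 95% counting intervals. Nr4a1 lies on the same side of 0 in both at each age, while Nr4a2 at 20 months is at -0.67 in lymphocyte-like and -0.06 in myeloid-like cells.

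Within classes, sub-clusters made without the 6 genes showed how widely the lower NR4A level was spread. The NR4A sum at 20 months was below that at 4 months in 6 of 6 CD8 T-like sub-clusters, 5 of them beyond counting error, and in 5 of 5 NK-like sub-clusters, 4 beyond it. Both regulatory T-like sub-clusters were also lower, as were 3 of 4 macrophage-like and 2 of 3 classical monocyte-like ones. The Il1b and Cxcl2-led macrophage-like cells, an inflammatory set, differed from the rest with 365, 439 and 384 CPM (0.07, -0.01 to 0.16). The Vcan and F13a1-led monocyte-like cells were higher at 20 months, with 270, 406 and 312 CPM (0.21, 0.09 to 0.32).

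In CD8 T-like cells the Nr4a2 difference was not even across sub-clusters. Cells led by Rgs16 and the chemokine gene Ccl3 had 331, 242 and 178 CPM of Nr4a2 (-0.89, -1.01 to -0.77), and cells led by the histone genes Hist1h2ao and Hist1h2ap, which mark division, had 178, 138 and 86.3 CPM (-1.04, -1.19 to -0.90). Cells led by Ly6a2 and Gm26614 had 90.0, 89.7 and 79.6 CPM (-0.18, -0.38 to 0.03), and interferon-responsive cells led by Ifit1 and Ifit1bl1 had 115, 101 and 94.7 CPM (-0.29, -0.49 to -0.08). These 4 sets spanned 90.0 to 331 CPM at 4 months and 79.6 to 178 CPM at 20 months. Nr4a1 was highest in cells led by Ifitm1 and Gzma, at 351, 599 and 345 CPM with no difference between 4 and 20 months (-0.03, -0.24 to 0.18). That set made up 17.0%, 6.76% and 3.69% of CD8 T-like cells, so the makeup of the class moved with age as well. With sub-cluster weights held fixed over the ages the NR4A sum of CD8 T-like cells was at -0.47 at 20 months.

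**Figure D3:**
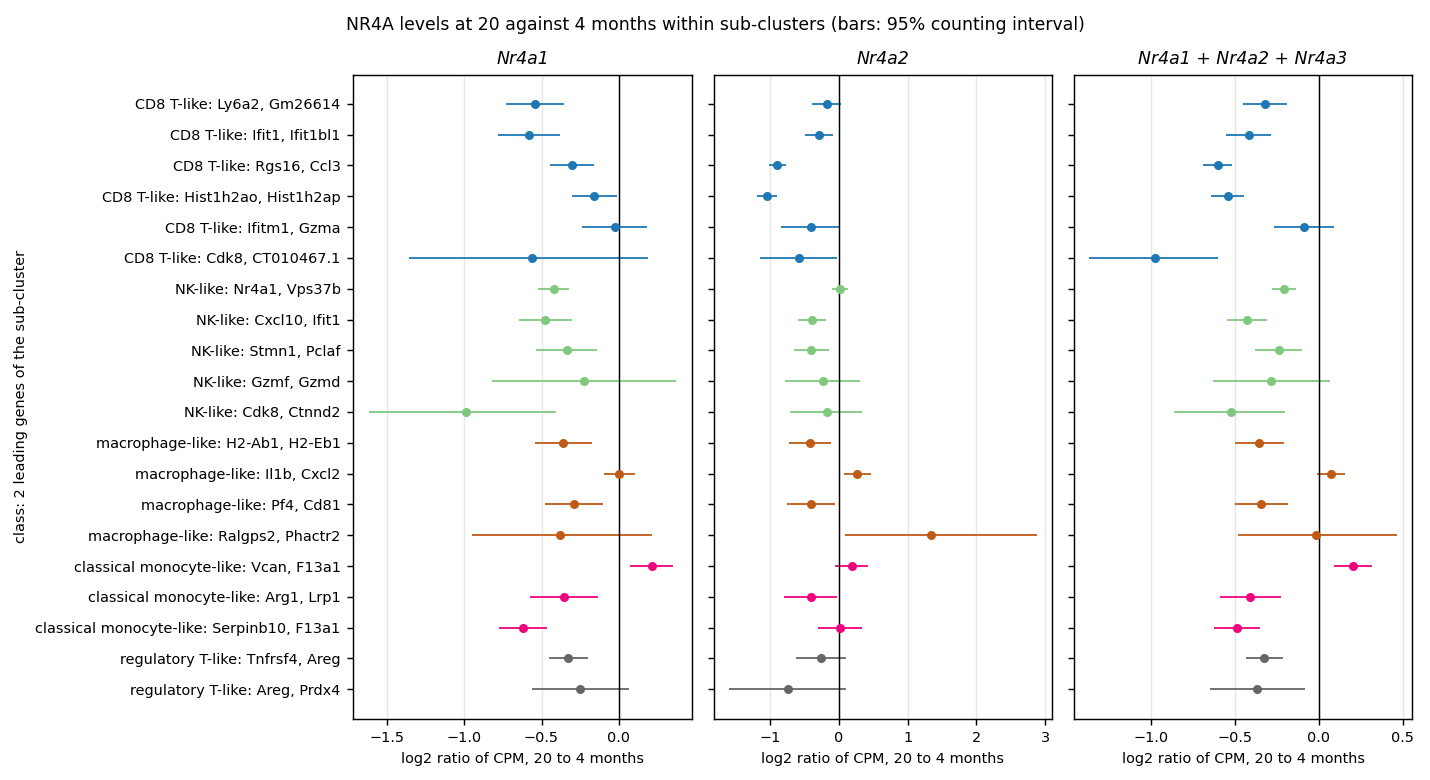
Log2 ratio of Nr4a1, Nr4a2 and the NR4A sum at 20 against 4 months in each sub-cluster of 5 classes (colours), named by its leading genes, with 95% counting intervals. For the NR4A sum all CD8 T-like and NK-like points lie below 0, and the point of the Vcan and F13a1-led classical monocyte-like cells lies above it at 0.21.

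The difference was also seen in the share of cells with a count. After each cell was thinned to 2000 counts, Nr4a1 was found in 22.1%, 28.2% and 17.2% of CD8 T-like cells and Nr4a2 in 23.8%, 19.5% and 16.8%. In unthinned cells these shares were 45.2%, 56.7% and 38.6% for Nr4a1 and 43.9%, 44.8% and 36.1% for Nr4a2, with median depths of 5168, 5916 and 5778 counts. NK-like cells had thinned shares of 28.9%, 31.8% and 22.9% for Nr4a1, and macrophage-like cells 19.4%, 25.5% and 16.8%. The same measure in mature DC-like cells, where Nr4a1 was lowest, was 10.9%, 8.88% and 10.6%, at median depths of 6601, 8540 and 7569 counts. The 10 cells with the most counts held 5.83%, 5.63% and 6.85% of the Nr4a1 counts of CD8 T-like cells and 4.88%, 3.95% and 4.80% of those of Nr4a2, so neither level rested on a few cells.

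**Figure D4:**
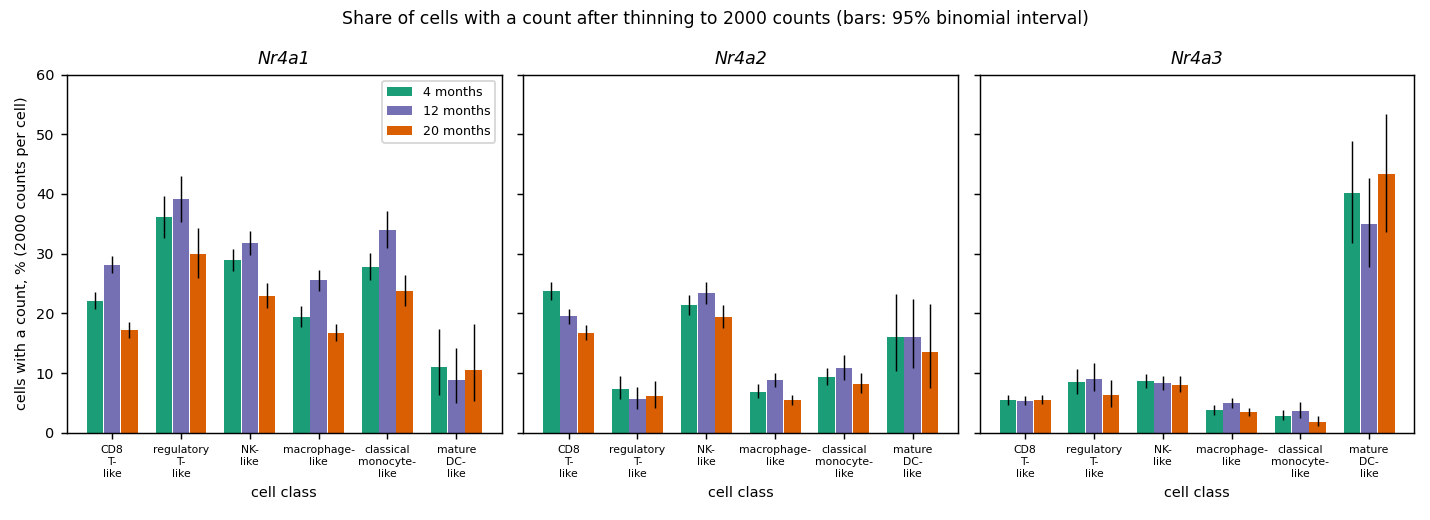
Percent of cells with at least 1 count of Nr4a1, Nr4a2 or Nr4a3 after thinning to 2000 counts per cell, in 6 classes at 3 ages, with exact 95% binomial intervals as bars. In CD8 T-like cells the share with Nr4a2 is 23.8%, 19.5% and 16.8%, and mature DC-like cells have the largest share with Nr4a3.

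Nr4a1 and Nr4a2 were found together more often than their separate shares would give. In CD8 T-like cells both had a count in 6.90% (6.03-7.84), 7.38% (6.58-8.26) and 4.93% (4.22-5.71) of thinned cells, against 5.26%, 5.50% and 2.88% if they were independent. NK-like cells had 9.55%, 10.6% and 7.58%, against 6.17%, 7.45% and 4.45%. Macrophage-like cells had 2.17%, 3.50% and 2.13%, against 1.34%, 2.24% and 0.925%. The excess was 1.31, 1.34 and 1.71 times in CD8 T-like cells and 1.61, 1.56 and 2.30 times in macrophage-like cells, in a mixture of sub-clusters that differ in both genes.

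Egr2 and Egr3 were followed with their few counts in view. In CD8 T-like cells Egr2 had 88, 163 and 170 counts, giving 4.32 CPM (3.46-5.32), 5.50 CPM (4.69-6.41) and 6.73 CPM (5.76-7.83), and a ratio of 0.64 (0.26 to 1.03) at 20 months. NK-like cells had 6.23, 7.98 and 9.15 CPM (0.55, 0.17 to 0.93), and the sub-cluster led by Nr4a1 and Vps37b had 3.51, 8.20 and 11.5 CPM (1.71, 1.07 to 2.40). That set was the only 1 of 5 NK-like sub-clusters above 0 beyond counting error. Of the 5, 3 were below 0, 1 of them beyond counting error. Of 6 CD8 T-like sub-clusters 2 were above 0 beyond counting error and 2 were below 0, none beyond it. Taken as whole classes, both cytotoxic classes thus had more Egr2 at 20 months while the NR4A sum stood lower. Macrophage-like cells went the other way, at 9.53, 10.8 and 6.37 CPM (-0.58, -0.89 to -0.27), and the CD8 T-like minus macrophage-like difference was 1.22 (0.74 to 1.70).

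Egr3 in CD8 T-like cells had 73, 54 and 50 counts and a ratio of -0.85 (-1.40 to -0.32) at 20 months. At 4 months 68.5% of its counts lay in 10 cells, and without the 10 highest cells of each library the ratio was 0.03. In cDC1-like cells 5, 32 and 72 counts lay in 4, 13 and 25 cells out of 88, 92 and 157, and the 10 highest cells held 100%, 90.6% and 77.8% of them. The ratio of 3.03 (1.74 to 4.70) at 20 months was past 1.5-fold, as was that of Nr4a3 (0.81, 0.23 to 1.44, at 36.5, 42.8 and 64.2 CPM), where 4.07% of tested genes were as much higher.

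Of 30 other immediate early genes, the AP-1 and feedback genes that answer the same signals, 19 reached 50 CPM in CD8 T-like cells at 20 months. All 19 were below their level at 4 months, 6 of them past 1.5-fold (1.08% of tested genes), and their median log2 ratio was -0.44, against -0.08 over all tested genes. Zfp36, whose product destabilises cytokine messages, stood at 202, 169 and 117 CPM (-0.78), and the growth regulator Myc at 64.1, 58.7 and 38.9 CPM (-0.72). The AP-1 subunits Fos (-0.49) and Junb (-0.60) were lower and Jun was close to its level at 4 months (-0.08). In regulatory T-like cells 19 of 20 were lower and 4 past the fold (1.58% of tested genes), with Fos (-0.76) and Csrnp1 (-0.74) the lowest. Their median was -0.34, against -0.06 over all tested genes.

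The immediate early genes were lower in myeloid-like cells too. In NK-like cells 20 of 22 were lower at 20 months, 1 past 1.5-fold (0.345% of tested genes), with a median of -0.29. In macrophage-like cells it was 20 of 24, 4 past the fold (0.655%), with a median of -0.32. In classical monocyte-like cells it was 21 of 25, 3 past the fold (1.31%), with a median of -0.26. Over all tested genes the medians of these 3 classes were -0.07, -0.05 and -0.00. The share of all tested genes below 0 was not counted. Fos was at -0.59 in NK-like cells, -0.65 in macrophage-like cells and -0.42 in classical monocyte-like cells. Junb was at -0.43, -0.49 and -0.46, and Jun at -0.53, -0.62 and -0.41. At 12 months the medians were -0.03 in CD8 T-like cells, 0.07 in NK-like cells and 0.13 in macrophage-like cells. In these 5 classes the lower Nr4a1 at 20 months therefore stood beside lower immediate early genes, and their part in the result was not tested. In the Upp1-led cells, where Nr4a1 was higher at 20 months (0.36, 0.24 to 0.47), 14 of 26 were below their level at 4 months, none was past 1.5-fold (1.08% of tested genes lower, 2.26% higher) and the median was -0.03.

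Heat shock genes, which answer handling and temperature as well as unfolded protein, did not share that order. Their median log2 ratio at 20 months was 0.03 in CD8 T-like cells, 0.01 in NK-like cells and 0.02 in macrophage-like cells. The inducible Hspa1a was higher at both later ages, with 37.8, 69.7 and 68.6 CPM in CD8 T-like cells (0.86), 34.7, 82.9 and 58.4 CPM in NK-like cells (0.75) and 91.3, 207 and 123 CPM in macrophage-like cells (0.43). Dnajb1, a partner of HSP70, was at -0.29 in CD8 T-like and in NK-like cells. The part of heat shock in the NR4A and EGR levels was not tested.

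Of 22 T cell activation genes, 15 reached 50 CPM in CD8 T-like cells and 11 of these were lower at 20 months, 1 past 1.5-fold (1.08% of tested genes), with a median of -0.21. That 1 was Ifng, the interferon gene of cytotoxic cells, at 430, 335 and 230 CPM (-0.90, -0.95 to -0.86). The inhibitory receptor gene Lag3 stood at 138, 106 and 96.1 CPM (-0.52) and the early activation marker Cd69 at 480, 490 and 380 CPM (-0.34). Crtam (0.45) and the costimulatory receptor gene Tnfrsf4 (0.23) were higher. In NK-like cells 8 of 12 were lower, 2 past the fold (0.345% of tested genes), with a median of -0.15. Ifng was at 162, 153 and 91.0 CPM (-0.83) and the chemokine gene Ccl3 at 204, 139 and 134 CPM (-0.61) there. Xcl1, a product of NK and T cells, was counted at 151, 142 and 95.7 CPM in macrophage-like cells. The 9 T cell markers together stood at 682, 1085 and 910 CPM in macrophage-like cells, against 9623, 9258 and 8345 CPM in CD8 T-like cells. These levels were not particular to macrophage-like cells. Classical monocyte-like cells had 676, 1078 and 898 CPM and cDC1-like cells 605, 1056 and 939 CPM. The summed NK cell markers stood at 967, 861 and 562 CPM in macrophage-like cells, lowest at 20 months as the NR4A sum was. In classical monocyte-like cells they stood at 913, 785 and 542 CPM. In CD8 T-like cells they stood at 2885, 2270 and 1895 CPM, in the same order of age as Nr4a2. The part of these marker levels in the macrophage-like and CD8 T-like values was not tested.

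Partners and regulators of the 6 genes were mostly below the level asked for testing. In CD8 T-like cells 4 of 22 reached 50 CPM, none was past 1.5-fold, and their median was -0.05 at 20 months. Tox, a factor of dysfunctional T cells that acts with NR4A proteins, stood at 164, 122 and 145 CPM (-0.18), Mef2a at -0.08 and Nfatc1, a factor that induces NR4A genes after calcium signals, at 0.01 (-0.10 to 0.13). Nab2, the corepressor that EGR proteins induce and bind, was at 10.1, 9.45 and 8.24 CPM in CD8 T-like cells (-0.29, -0.58 to -0.01) and at 9.24, 7.30 and 10.1 CPM in macrophage-like cells (0.13, -0.15 to 0.42). In NK-like cells the median of 4 was 0.01, and Crem, a CREB family member, was at 0.17. In regulatory T-like cells 1 of 3 was past 1.5-fold lower (1.58% of tested genes). It was Creb1, the CREB gene itself, at 62.9 CPM at 4 months and 41.3 CPM at 20 months (-0.61, -0.91 to -0.31). In the Klra6-led T-like cells 1 of 4 was past it lower (median -0.16), where 2.14% of tested genes were. In mature DC-like cells it was 1 of 5 (median -0.33), where 5.85% of tested genes were. Resting T cell genes had medians of -0.15 in CD8 T-like cells (2 genes) and -0.02 in NK-like cells (4 genes), and none of these was past 1.5-fold in either class.

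Genes with the most similar profile were sought over 36 profiles, the 12 named classes in 3 libraries, which share depth and free RNA within a library. Among 6371 genes with enough counts, Nr4a1 was most like the integrin gene Itgb2 (Pearson r = 0.81), Adgre5 (0.80) and Stap1 (0.78). Nr4a2 was most like the NK receptor genes Klrk1 (0.75) and Cd160 (0.71) and Rgs3 (0.72). Nr4a3 was most like the mature dendritic cell genes Ccr7 (0.88), Traf1 (0.86) and Nfkb2 (0.84). Egr1 was most like Mrpl52 (0.81), Dpysl2 (0.78) and Mindy3 (0.77). The profile of Egr2 came closest to Ccl1 (0.83), the T cell growth factor gene Il2 (0.79) and Penk (0.76), and that of Egr3 to the cDC1 receptor gene Xcr1 (0.79), Snx22 (0.75) and Gm45140 (0.72), though both are themselves below the level asked of the other genes. Between members the values were 0.62 for Egr1 with Nr4a1, 0.18 for Nr4a1 with Nr4a2, 0.37 for Nr4a2 with Nr4a3 and -0.35 for Nr4a1 with Nr4a3. The 3 NR4A genes were thus not distributed alike over these classes.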

How the data were processed

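PIP-seq, a droplet method with barcoded particles, was used by the authors for 3-prime single-cell libraries, per the labels' protocols. The authors deposited unnormalised gene-by-cell counts, 1 matrix per age, and STAR 2.7.10a and GRCm38 are named in the submitters' processing notes. Cell calling, use of strand and whether molecules or reads were counted are not given in the sources used here. Of the gene identifiers, 54349 (98.1%) occur in GENCODE M21, from which positions were taken. Totals were 110371225, 127850782 and 119873564 counts in 14393, 14653 and 14684 cells at 4, 12 and 20 months.

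Cells below 500 counts or above 15% mitochondrial counts were dropped, and the 6% with the highest Scrublet score were removed as doublets (863, 879 and 881 cells). Cells of all libraries were clustered together (scanpy 1.11.5, Leiden, 2000 variable genes, 30 components, 15 neighbours, resolution 1.0), without the 6 genes and the fixed gene lists. Sub-clustering used resolutions of 1.0 or 0.5 and left out 18 library-specific genes. A cluster took the class of its best mean marker score if that was at least 0.4, at least 3 markers were each found in at least 10% of cells and no other class had more markers among its 10 leading genes. The scoring, the resolutions and the list of classes were set after the clusters had been seen. The 6 genes and the 5 gene lists were chosen with earlier results of these data known.

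CPM have exact Poisson intervals, ratios exact conditional binomial intervals and shares exact Clopper-Pearson intervals, all at 95% and for counting error only. Reads of 1 molecule, if counted, would make them too narrow. The ratio script was tested on simulated counts. No p-value was computed, since there is 1 library per age. The background share is that of genes at 50 or more CPM in either library compared that are past 1.5-fold. Members below 50 CPM in both libraries are set beside that share but do not belong to it. Genes named from a list are the 2 furthest above and the 2 furthest below 0 at 20 months among those, and Fos, Jun, Junb, Nab2 and Cd69. For likeness, log2(CPM + 10) was used over genes with a mean of at least 20 CPM and a log2 range of at least 1. Alternatives covered doublets, depth, clustering, naming, scaling, weighting, makeup and background. Promoters came from RefSeq for 4 of the 6 genes.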

Additional observations from a re-analysis of the deposited data

Results flagged for a closer look

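The ratios to 4 months pointed opposite ways in lymphocyte-like and myeloid-like cells, with both counting intervals excluding 0, for Nr4a2 at 12 months (lymphocyte minus myeloid difference -0.44 on the log2 scale), Nr4a3 at 12 months (-0.51) and Egr3 at 12 months (-1.31) and 20 months (-1.83). At 20 months 25 cDC1-like cells held 72 of the 124 Egr3 counts of myeloid-like cells, and without cDC1-like cells the myeloid ratio was -0.01. At 12 months cDC1-like cells held 32 of 91 counts, and without them the ratio was 0.31. The cells led by Cxcl11 and Ifit1bl1 had 1, 10 and 6 Egr3 counts at 4, 12 and 20 months, with ratios of 3.82 (1.01 to 9.26) and 2.93 (-0.11 to 8.45), which rest on 1 count at 4 months. Egr2 at 20 months was higher in CD8 T-like cells and lower in macrophage-like cells than at 4 months, a difference of 1.22. With 1 library per age none of these differences was tested beyond counting error.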

How the results depend on the processing

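No paired analysis was possible because there is 1 library per age. At 20 months the NR4A sum stayed below its level at 4 months under every alternative run: from -0.81 to -0.47 in CD8 T-like cells, -0.28 to -0.16 in NK-like cells, -0.38 to -0.082 in macrophage-like cells and -0.50 to -0.014 in classical monocyte-like cells, and the lymphocyte minus myeloid difference from -0.44 to -0.21. With each library clustered separately the NR4A sum was -0.10 at 12 and -0.56 at 20 months in CD8 T-like cells, 0.061 and -0.38 in macrophage-like cells and 0.46 and -0.50 in classical monocyte-like cells, the EGR sum was 0.0062 in CD8 T-like and -0.55 in classical monocyte-like cells at 20 months and 0.39 in macrophage-like cells at 12 months, and the lymphocyte minus myeloid differences at 12 months were -0.11 (NR4A) and -0.12 (EGR). With fixed sub-cluster weights the NR4A sum of CD8 T-like cells reversed to 0.11 at 12 months and was -0.47 at 20 months, that of macrophage-like cells was 0.27 and -0.082, that of classical monocyte-like cells -0.16 at 20 months, and the difference at 12 months -0.13. With the lowest level of the named classes subtracted, the NR4A sum of CD8 T-like cells was -0.20 at 12 and -0.81 at 20 months, the EGR sum at 12 months was -0.35 in CD8 T-like and -0.21 in NK-like cells, and the differences were -0.25 and -0.44 (NR4A, 12 and 20 months) and -0.44 (EGR, 12 months). Looser naming gave -0.70 in CD8 T-like cells and -0.014 in classical monocyte-like cells at 20 months and 0.43 in the latter at 12 months. Median-of-ratios scaling gave -0.56 in CD8 T-like cells, -0.16 in NK-like cells and a difference of -0.24 at 20 months. Leaving library-specific genes out of the clustering gave -0.17 in macrophage-like cells, -0.10 in classical monocyte-like cells and a difference of -0.21. Without doublet removal macrophage-like cells were at -0.19, and with the members and lists kept in the clustering the difference was -0.22. CD8 T-like cells with the sub-cluster led by Gzmm and Ccr7, an alternative chosen after seeing the data, were at -0.78. The sub-cluster led by Gzmm and Ccr7, with Dapl1 next among its leading genes, is not part of the CD8 T-like class. Leaving it out therefore removed no cells, changed no value and tested nothing.

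Single genes that reversed were Egr3 in CD8 T-like cells at 20 months (0.026 without the 10 highest cells), Nr4a1 (0.015) and Nr4a3 (0.53) in macrophage-like cells at 20 months with the lowest level subtracted, Nr4a2 there at 20 months with fixed weights (0.021) and at 12 months when clustered separately (-0.17) or with the lowest level subtracted (-0.16), and Nr4a3 there at 12 months when clustered separately (-0.11). The same subtraction deepened Nr4a2 at 20 months to -2.24 in macrophage-like and -2.26 in regulatory T-like cells. With the lowest level subtracted, the NR4A sum of all lymphocyte-like cells (-0.065) and Nr4a2 of all myeloid-like cells (-0.046) reversed at 12 months. Egr3 of all myeloid-like cells without cDC1-like cells, also chosen after seeing the data, was at -0.0083 at 20 months. The cause of these changes was not tested, apart from the cells, classes or weights that each alternative removes or fixes. Depth limits Egr2 and Egr3, which had under 100 counts in most classes.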
